A study of Homo sapiens with 16 samples.

Results

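Focal adhesions are the plaques through which integrins, bound to matrix outside the cell, hold the actin cytoskeleton inside it. Talin binds the integrin tail and pulls it into its active state with the help of kindlin, the trimer of integrin-linked kinase, PINCH and parvin couples the tail to actin, and focal adhesion kinase (FAK) with Src phosphorylates the scaffolds paxillin and p130Cas. In keratinocytes these plaques attach the basal cell to the basement membrane, and signalling from integrins through FAK and Src is known to promote nuclear localisation of YAP, the transcriptional co-activator of the Hippo pathway.

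The mRNA of 10 such genes was followed here: the kinases PTK2 (FAK) and SRC, the scaffolds PXN (paxillin) and BCAR1 (p130Cas), the integrin activators TLN1 (talin 1) and FERMT1 (kindlin 1), the trimer ILK, LIMS1 (PINCH 1) and PARVA (alpha-parvin), and ZYX (zyxin). They were chosen by symbol out of the 26229 genes listed, and all 10 were among the 14673 genes that passed the filter on low counts. RNA-seq was measured in A431, a human epidermoid carcinoma line, and in HaCaT, an immortalised human keratinocyte line. Both lines were grown in DMEM with 10% FCS. Each line gave 1 library with a control siRNA (siCTRL), 3 with siRNA against YAP1 (siYAP), 1 with an empty vector and 3 with YAP5SA, a constitutively active mutant of YAP in which inhibitory serines are replaced by alanine. The siRNA cells were transfected on 2 occasions 24 h apart and taken 48 h after the second, with no expression vector, and the vector cells had no siRNA and were taken at a time not given in the sources used here. The methods call the triplicates biological, and each line stands for a single line rather than for a tissue. Each control is a single library, so that the test took its spread from the triplicates and assumed that a lone library varies as they do.

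The libraries held between 18115624 and 46791673 assigned read pairs (median 26622174). Levels are given as counts-per-million (CPM) after TMM scaling, which are not divided by gene length. YAP1 checked the labels: it stood at 94.3 CPM in A431 siCTRL and 5.04 to 7.0 CPM in A431 siYAP, at 254 CPM in HaCaT siCTRL and 21.6 to 23.2 CPM in HaCaT siYAP, and between 1495 and 22255 CPM in the 6 YAP5SA libraries. All 13 keratinocyte markers were above 3 counts in every group. The 8 fibroblast markers summed to at most 27.9 CPM and the 8 immune and endothelial markers to at most 64.9 CPM. PTPRC and CD3E were at or below 0.255 CPM, but CDH5 reached 31.1 CPM in A431 and 51.8 CPM in HaCaT. Of the fibroblast markers, LUM reached 12.7 CPM in A431 and DCN 14.2 CPM in HaCaT. The 2 controls of a line differed from each other by a median of 0.29 (log2 scale, absolute difference over 12240 genes) in A431 and of 0.69 in HaCaT. The single HaCaT empty vector library therefore stands apart from HaCaT siCTRL, and the HaCaT member values that rest on it are given below with the other control as well.

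Promoter sequence was looked at for the members called higher with YAP5SA than with the single empty vector library in HaCaT. These were SRC, PXN, BCAR1 and ZYX, and none of them was called with siCTRL as the control. RefSeq windows (GRCh38.p14, 250 bases before to 50 after a transcript start) were found for 6 of the 10 members, PXN, TLN1, ILK, LIMS1, BCAR1 and ZYX, 14 windows in all. SRC had none. The letters CATTCC, which the YAP partner TEAD binds, read on both strands, were in 1 of these 14 windows and in 14% of all 35116 windows. The letters TGANTCA, a loose AP-1 pattern with any base in the middle, read the same on both strands. They were in 2 of the 14, as TGAGTCA in BCAR1 and TGATTCA in LIMS1, and in 7.71% of all windows. The CArG box, bound by serum response factor, was in none of the 14 and in 1.29% of all. The sequences shown are both PXN starts, the BCAR1 start that carries AP-1 letters and the only ZYX start, lower case with the matched letters in capitals.
PXN start with CATTCC, chr12:120250114-120250413, minus strand: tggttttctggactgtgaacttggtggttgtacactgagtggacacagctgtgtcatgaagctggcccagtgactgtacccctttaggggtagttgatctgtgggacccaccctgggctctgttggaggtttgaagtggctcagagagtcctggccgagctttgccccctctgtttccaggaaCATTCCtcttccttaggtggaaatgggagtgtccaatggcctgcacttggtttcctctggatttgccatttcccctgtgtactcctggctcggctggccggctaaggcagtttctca
PXN upstream start, chr12:120265681-120265980, minus strand: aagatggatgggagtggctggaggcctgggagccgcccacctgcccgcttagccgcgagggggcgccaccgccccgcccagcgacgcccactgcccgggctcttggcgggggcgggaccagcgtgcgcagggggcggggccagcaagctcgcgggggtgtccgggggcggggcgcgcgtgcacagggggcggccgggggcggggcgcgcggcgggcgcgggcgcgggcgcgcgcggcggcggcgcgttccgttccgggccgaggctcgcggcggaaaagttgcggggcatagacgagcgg
BCAR1 start with TGANTCA, chr16:75267958-75268257, minus strand: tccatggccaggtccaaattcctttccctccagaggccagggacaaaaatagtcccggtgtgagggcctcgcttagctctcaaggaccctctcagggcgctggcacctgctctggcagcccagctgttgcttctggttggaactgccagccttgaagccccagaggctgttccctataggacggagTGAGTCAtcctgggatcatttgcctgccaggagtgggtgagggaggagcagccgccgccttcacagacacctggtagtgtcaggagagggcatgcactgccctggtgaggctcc
ZYX start, chr7:143381095-143381394, plus strand: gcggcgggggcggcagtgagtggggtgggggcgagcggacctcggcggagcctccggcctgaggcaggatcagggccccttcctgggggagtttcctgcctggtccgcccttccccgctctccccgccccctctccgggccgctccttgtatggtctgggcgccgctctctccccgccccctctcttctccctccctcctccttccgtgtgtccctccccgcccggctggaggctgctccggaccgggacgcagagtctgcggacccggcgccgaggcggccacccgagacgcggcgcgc
The CATTCC of PXN began 67 bases before the transcript start and the TGANTCA of BCAR1 began 64 bases before it. The upstream PXN window was 81.3% G or C and the ZYX window 76.0%, against 54.3% in the PXN window that carries CATTCC. A match describes these letters alone, and no binding was measured.

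Divided by transcript length, the members spanned more than an order of magnitude and kept a similar order in both lines. PTK2 had the highest median in each line, 79.4 CPM per kb in A431 and 63.5 CPM per kb in HaCaT. PARVA had the lowest, 4.15 CPM per kb in A431 and 5.17 CPM per kb in HaCaT. In A431 the ranges of PTK2, ILK and LIMS1 overlapped their neighbours in this order, then came PXN (25.6 to 34.1 CPM per kb), which overlapped neither LIMS1 above it nor TLN1 below it, although the highest FERMT1 value (26.8 CPM per kb) reached into its range. TLN1, FERMT1, SRC and ZYX overlapped their neighbours between 8.93 and 26.8 CPM per kb, and BCAR1 and PARVA overlapped each other below them. In HaCaT the upper set held PTK2, LIMS1, ILK and FERMT1, whose ranges overlapped between 44.0 and 92.5 CPM per kb. PXN overlapped neither neighbour in HaCaT, and TLN1, SRC, ZYX, BCAR1 and PARVA overlapped their neighbours below it. The length is that of the GENCODE 29 transcript with the longest coding sequence, 8719 bases for PARVA, 1801 for ILK and 3246 for PXN, of which 3243 are coding, so that the per length value of a gene that uses another transcript would shift.

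**Figure D1:**
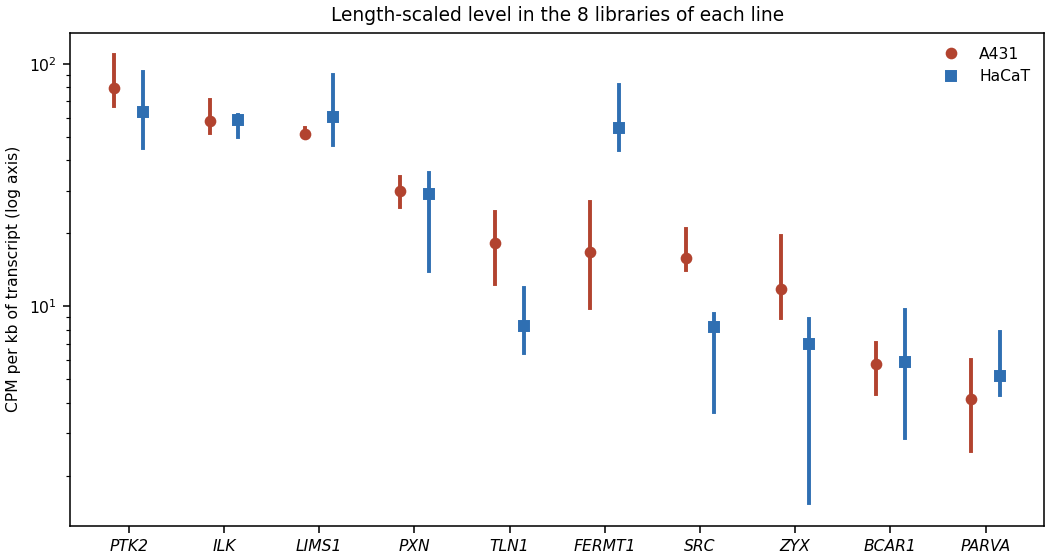
CPM per kb of transcript (log axis) of each member in A431 (circles) and HaCaT (squares). The point is the median and the bar the range over the 8 libraries of a line, with members ordered by their A431 median. PTK2 is highest and PARVA lowest in both lines, and FERMT1 moves from 16.7 CPM per kb in A431 to 54.2 CPM per kb in HaCaT.

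Among the members FERMT1 had the largest fitted difference between the lines. This integrin activator, which binds the beta subunit tail and whose loss causes Kindler syndrome, had 50.5 to 138 CPM in the 8 A431 libraries (median 86.1) and 227 to 423 CPM in the 8 HaCaT libraries (median 279). No A431 library reached a HaCaT one, and the fitted log2 difference of A431 minus HaCaT was -1.70 ± 0.13 (SE; edgeR FDR = 9.77e-08). In bulk RNA a lower level in every cell and fewer cells with the transcript cannot be told apart. TLN1 lay the other way. It had 109 to 215 CPM in A431 (median 161) and 56.8 to 105 CPM in HaCaT (median 72.9), again with no overlap, and a log2 difference of 1.07 ± 0.12 (FDR = 4.44e-06).

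SRC and ZYX were also higher in every A431 library than in any HaCaT one. SRC, the founding member of its kinase family, had 61.0 to 89.5 CPM in A431 (median 68.3) and 15.8 to 39.9 CPM in HaCaT (median 35.4), a log2 difference of 1.23 ± 0.09 (FDR = 3.82e-08). ZYX, a LIM protein that gathers at stretched actin fibres, had 22.3 to 48.6 CPM in A431 (median 29.3) and 3.85 to 22.2 CPM in HaCaT (median 17.4), with a log2 difference of 1.23 ± 0.16 (FDR = 1.02e-05). Of the others, PTK2 (log2 difference 0.40 ± 0.10) and PXN (0.29 ± 0.08) were called higher in A431, and PARVA (-0.45 ± 0.09) and LIMS1 (-0.22 ± 0.08) higher in HaCaT, though the ranges of all of these overlapped. The PXN difference rests on the HaCaT empty vector library, at 45.2 CPM against 81.6 to 115 CPM in the other 7 HaCaT libraries. In the treated libraries alone it was 0.04 (FDR = 0.675). In the control libraries alone PARVA was -0.20 (FDR = 0.321) and LIMS1 -0.14 (FDR = 0.398), neither called, and LIMS1 was also not called with no filter on low counts (-0.19, FDR = 0.066). ILK (0.12 ± 0.07) and BCAR1 (0.26 ± 0.15) were not called. In all, 8 of 10 members were called, 5 higher in A431 and 3 higher in HaCaT, where 60.6% of all tested genes were called, so a call is close to the usual state of a gene in this comparison.

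Several relatives of these genes also differed. PARVB, the beta form of parvin, had 12.7 to 19.5 CPM in A431 and 0.0774 to 0.692 CPM in HaCaT, a log2 difference of 5.82 ± 0.18 (FDR = 2.75e-11). PARVG was at or near 0 in both lines, with at most 0.0278 CPM. PTK2B, the calcium-responsive relative of FAK, had 116 to 224 CPM in A431 and 30.3 to 76.1 CPM in HaCaT (log2 difference 1.59 ± 0.08, FDR = 1.6e-09). TLN2 was low, at 0.918 to 3.17 CPM in A431 and 4.14 to 13.7 CPM in HaCaT, and was the talin that was higher in HaCaT (log2 difference -2.11 ± 0.24). FERMT3, the kindlin of blood cells, stayed at or below 0.459 CPM, and LIMS2 was listed at 0 in all 8 HaCaT libraries and at most 0.735 CPM in A431. LIMS3, a near copy of LIMS1 with which it can share reads, was at most 8.81 CPM in any library, so that the split of reads between them is uncertain. The antisense gene PXN-AS1 was at most 1.55 CPM, and reads of PXN and PXN-AS1 cannot be told apart because no strand setting is stated.

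Over a wider list of 86 focal adhesion genes, of which 78 were tested, 41 were higher in A431 and 21 in HaCaT. The call rate was 79.5%, against 60.6% of all genes. Each share of all genes here and below is taken over all 14673 tested. Only 12240 of these had a logCPM above 1, which a call required. A share of all genes is therefore lower than the share among genes that could be called. Kinases and phosphatases had 11 of 16 higher in A431 and 1 higher in HaCaT, among them the Src family kinases FYN (1.5 to 22.1 CPM in HaCaT, 21.8 to 29.4 CPM in A431, log2 difference 2.13 ± 0.11) and YES1 (82.8 to 134 CPM in HaCaT, 262 to 336 CPM in A431, 1.61 ± 0.06). ITGA5, the fibronectin receptor subunit, had 174 to 239 CPM in A431 and 7.98 to 202 CPM in HaCaT (2.54 ± 0.10), its HaCaT spread running from 7.98 to 12.5 CPM in the siRNA libraries up to 86.2 to 202 CPM in the vector libraries. The actin linker EVL had 8.79 to 11.7 CPM in A431 and at most 0.282 CPM in HaCaT (6.12 ± 0.37). The LIM protein AJUBA, a relative of zyxin, was higher in HaCaT, at 194 to 331 CPM against 41.1 to 132 CPM in A431 (log2 difference -1.70 ± 0.12).

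Which of these mRNAs depend on YAP was asked first by knockdown. PARVA, which binds ILK and actin, was the member that fell in A431. It stood at 52.2 CPM in A431 siCTRL and at 26.4, 22.6 and 22.1 CPM in the 3 siYAP libraries. In HaCaT it stood at 60.3 CPM in siCTRL and at 42.2, 37.5 and 41.9 CPM with siYAP. All 6 siYAP libraries were below the control of their line. The log2 fold change was -1.14 ± 0.18 in A431 (FDR = 0.00372), -0.57 ± 0.18 in HaCaT (FDR = 0.0825, not called) and -0.85 ± 0.13 over both lines (FDR = 0.000978). The controls bear on its size: PARVA was 36.8 CPM in the A431 empty vector library and 41.9 CPM in the HaCaT one, and with empty vector as the control the change was -0.63 in A431 (FDR = 0.04), -0.05 in HaCaT (FDR = 0.844) and -0.34 over both lines (FDR = 0.0417).

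PTK2 moved the opposite way. FAK mRNA stood at 315 CPM in A431 siCTRL and at 507, 479 and 495 CPM with siYAP. It stood at 215 CPM in HaCaT siCTRL and at 383, 431.2 and 397 CPM with siYAP. Each siYAP library was above both controls of its line, the empty vector libraries being at 354 CPM in A431 and 288 CPM in HaCaT. PTK2 rose by a log2 fold change of 0.91 ± 0.20 in HaCaT (FDR = 0.0183) and of 0.78 ± 0.14 over both lines (FDR = 0.00364), and the value in A431 was 0.65 ± 0.20 (FDR = 0.0733, not called). With empty vector as the control the change was 0.48 in A431 (FDR = 0.135), 0.49 in HaCaT (FDR = 0.0475) and 0.48 over both lines (FDR = 0.0106). The HaCaT call was lost when that line was fitted alone (0.89, FDR = 0.0747).

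The other members showed no call with siYAP against siCTRL. In A431, 1 of 10 members was called against 5.6% of all genes, and in HaCaT 1 of 10 against 5.67%. Over both lines it was 2 of 10 (PTK2 and PARVA) against 13% of all genes. The members' median log2 fold change was 0.21 in A431 and 0.14 in HaCaT, against 0.03 over all genes in each. FERMT1 had 87.5 CPM in A431 siCTRL and 57.0, 57.1 and 50.5 CPM with siYAP, all lower, with a log2 fold change of -0.67 ± 0.25 that was not called (FDR = 0.13). In HaCaT FERMT1 had 278 CPM in siCTRL and 246, 287 and 262 CPM with siYAP, which lie on both sides of the control. LIMS1 had 117 CPM in HaCaT siCTRL and 134, 169 and 148 CPM with siYAP (0.36 ± 0.16, FDR = 0.224). PXN had a log2 fold change of -0.06 ± 0.15 in A431 and -0.07 ± 0.15 in HaCaT, and ILK had 0.19 ± 0.15 in each line. No member's siYAP effect was called different between the lines, where 0.17% of all genes were called. The largest such difference was that of FERMT1 (HaCaT minus A431 0.60 ± 0.36, FDR = 0.566). PARVA (0.56 ± 0.26, FDR = 0.434) was the 1 member with an unadjusted edgeR p under 0.05, as had 11.5% of all genes. DESeq2 called 0 members.

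**Figure D2:**
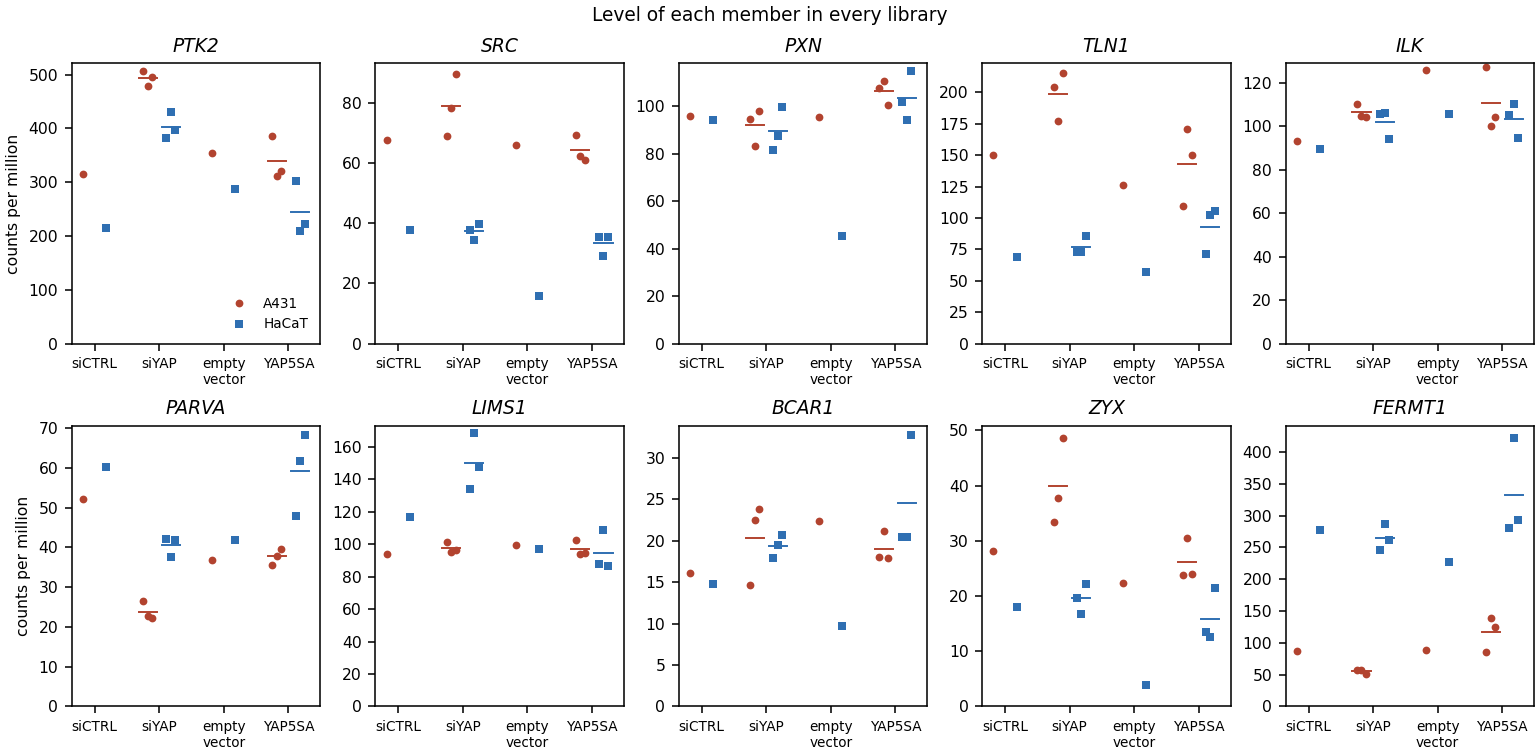
CPM (linear axis from 0) of each member in every library, A431 as circles and HaCaT as squares, with a line at the mean of each triplicate. PARVA is lower and PTK2 higher in all siYAP libraries than in siCTRL. The HaCaT empty vector square is the lowest HaCaT value for SRC, PXN, TLN1, BCAR1, ZYX and FERMT1.

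Among the wider list with siYAP, 2 of 78 genes rose and 3 fell in A431 (6.41% called), and 6 rose and 3 fell in HaCaT (11.5% called), against 5.6% and 5.67% of all genes. With empty vector as the control in HaCaT, 27 rose and 19 fell (59% called, against 51.2% of all genes). AJUBA, a zyxin relative and Hippo pathway adaptor, had 103 CPM in A431 siCTRL and 41.1, 47.6 and 45.6 CPM with siYAP (log2 fold change -1.21 ± 0.22, FDR = 0.00898), and fell over both lines (-0.92 ± 0.16, FDR = 0.00266). CSRP1, another LIM protein, fell in A431 from 49.2 CPM to between 23.4 and 29.1 CPM (-0.87 ± 0.16, FDR = 0.00808). ITGB4, the hemidesmosome integrin subunit, rose in A431 from 119 CPM to between 175 and 267 CPM (0.89 ± 0.24, FDR = 0.0473). The A431 empty vector library had 161 CPM of ITGB4, nearer to the siYAP range. In HaCaT ITGB8 rose from 105 CPM to between 445 and 498 CPM (2.15 ± 0.24, FDR = 0.000425), and the Src family kinase LYN fell from 48.5 CPM to between 28.3 and 29.5 CPM (-0.75 ± 0.13, FDR = 0.00559). The HaCaT empty vector library had 262 CPM of ITGB8, far above siCTRL but below the siYAP range, and 44.1 CPM of LYN. The second kindlin, FERMT2, had 9.29 CPM in HaCaT siCTRL and 16.5, 23.9 and 15.9 CPM with siYAP (1.01 ± 0.26, FDR = 0.0362). Its HaCaT empty vector level was 23.4 CPM, and the change turned to -0.32 with that control.

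YAP5SA gave no member call in A431. By edgeR 0 of 10 members and 0% of all genes were called, 0 members had an unadjusted p under 0.05, against 828 genes (5.64%), and DESeq2 also called 0 members. YAP1 itself, from 124 CPM in empty vector to between 1495 and 3245 CPM, had an FDR of 0.197 here. SRC had 65.9 CPM with empty vector and 69.5, 62.2 and 61.0 CPM with YAP5SA, and PARVA had 36.8 CPM and then 35.6, 37.9 and 39.7 CPM. The largest fitted value was that of FERMT1, at 89.0 CPM with empty vector and 84.8, 138 and 125 CPM with YAP5SA (0.38 ± 0.26, FDR = 0.829).

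In HaCaT, 4 of 10 members were higher with YAP5SA than with empty vector and 0 were lower, where 13.6% of all genes were called (6.99% higher). These 4 were the kinase SRC and the adaptors PXN, BCAR1 and ZYX. ZYX had 3.85 CPM with empty vector and 13.4, 12.6 and 21.5 CPM with YAP5SA, a log2 fold change of 2.04 ± 0.35 (FDR = 0.00576). BCAR1 had 9.68 CPM with empty vector and 20.4, 20.4 and 32.7 CPM with YAP5SA (1.34 ± 0.32, FDR = 0.0192). PXN had 45.2 CPM and then 102, 94.3 and 115 CPM (1.2 ± 0.16, FDR = 0.00219). SRC had 15.8 CPM and then 35.4, 29.2 and 35.4 CPM (1.08 ± 0.18, FDR = 0.00547). All YAP5SA libraries were above the empty vector library for each of the 4.

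These calls rested on the single empty vector library. HaCaT siCTRL had 18.03 CPM of ZYX, 37.7 of SRC, 94.3 of PXN and 14.7 of BCAR1, so the empty vector level was 0.214 of siCTRL for ZYX, 0.418 for SRC, 0.480 for PXN and 0.656 for BCAR1. The YAP5SA libraries lay near siCTRL and siYAP for SRC, PXN and ZYX. With siCTRL in place of empty vector, 0 members were called, where 44.5% of all genes were. That comparison also sets vector cells against siRNA cells. SRC and ZYX then turned to -0.18 (FDR = 0.412) and -0.19 (FDR = 0.632), PXN went to 0.14 (FDR = 0.487) and BCAR1 to 0.73 (FDR = 0.0689). With both controls as 1 group, BCAR1 remained called at 1.01 (FDR = 0.0307), while SRC (0.32), PXN (0.57) and ZYX (0.55) were not. Between the same 2 controls in A431 the corresponding ratios were 0.791 for ZYX, 0.976 for SRC, 0.996 for PXN and 1.39 for BCAR1. The summed keratinocyte markers also differed between the HaCaT controls, at 5154 CPM in siCTRL and 11062 CPM in empty vector, with 8055 to 10849 CPM in YAP5SA, and their part in the result was not tested. The 2 HaCaT controls differ in vector, siRNA transfection and possibly time of harvest, and each is 1 culture. Which of these sets them apart cannot be told with a single library of each.

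**Figure D3:**
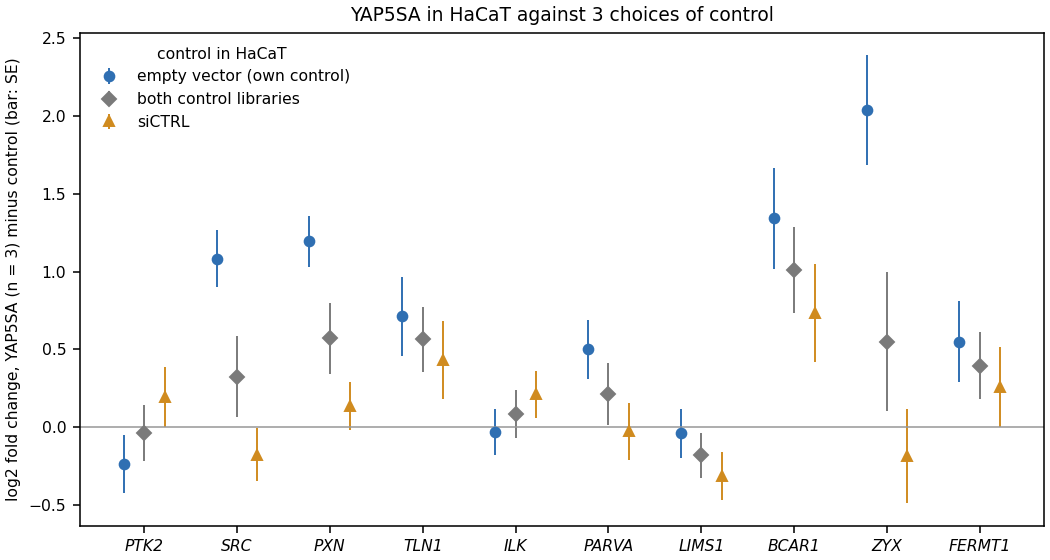
Log2 fold change of YAP5SA (3 libraries) in HaCaT against the empty vector library (circles), both control libraries (diamonds) or the siCTRL library (triangles), with bars of 1 SE. ZYX goes from 2.04 to 0.55 to -0.19 and SRC from 1.08 to 0.32 to -0.18 as the control changes, while BCAR1 stays at or above 0.73.

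The remaining members were not called in HaCaT. TLN1 had 56.8 CPM with empty vector and 71.6, 102 and 105 CPM with YAP5SA (0.71 ± 0.25, FDR = 0.0742), and PARVA had 41.9 CPM and then 47.9, 61.8 and 68.3 CPM (0.50 ± 0.19, FDR = 0.0884). All YAP5SA values of both were above empty vector, and PARVA's lay on both sides of the 60.3 CPM of siCTRL. FERMT1 had 227 CPM and then 280, 423 and 294 CPM (0.55 ± 0.26, FDR = 0.167). PTK2 had 288 CPM and then 303, 209 and 222 CPM (-0.23 ± 0.19, FDR = 0.413). ILK (-0.03 ± 0.15) and LIMS1 (-0.04 ± 0.16) were closest to 0. With siCTRL as the control none of the 6 was called either: PTK2 was then 0.19 (FDR = 0.431), TLN1 0.43 (FDR = 0.171), ILK 0.21 (FDR = 0.263), PARVA -0.02 (FDR = 0.926), LIMS1 -0.31 (FDR = 0.112) and FERMT1 0.26 (FDR = 0.429).

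Over both lines 3 of 10 members were called higher with YAP5SA, where 2.04% of all genes were called. These were ZYX (1.13 ± 0.23, FDR = 0.0329), PXN (0.68 ± 0.11, FDR = 0.0158) and SRC (0.52 ± 0.12, FDR = 0.0499). Each value is the mean of the 2 lines. In A431 alone ZYX was 0.23, PXN 0.16 and SRC -0.04, none of them called. The SRC call was lost without A431 YAP5SA replicate 2 or 3 or HaCaT YAP5SA replicate 3 (log2 fold change 0.50 to 0.54), the ZYX call without A431 YAP5SA replicate 2 (1.07) or 3 (1.16), and all 3 with siCTRL as the control. The difference of the YAP5SA effect between the lines was itself tested. For 0.0886% of all genes it was called, and for 0 members by edgeR. Of the members 4 had an unadjusted p under 0.05, as had 22.4% of all genes. These were PXN (HaCaT minus A431 1.04 ± 0.22, FDR = 0.0549), SRC (1.12 ± 0.24, FDR = 0.0574), ZYX (1.81 ± 0.44, FDR = 0.0649) and BCAR1 (1.58 ± 0.43, FDR = 0.0755). DESeq2 called all 4 of them. A difference between the lines is therefore not settled for these genes, and it draws on the same HaCaT empty vector library.

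Across the wider list, 18 of 78 genes rose with YAP5SA in HaCaT and 3 fell (26.9% called, against 13.6% of all genes), and 0 were called in A431. With siCTRL as the control in HaCaT, 22 rose and 17 fell (50% called, against 44.5% of all genes). The actin linkers had 5 of 17 higher, among them ACTN1 (alpha-actinin 1), from 205 CPM to 468, 547 and 547 CPM (1.35 ± 0.16, FDR = 0.00102), and TNS4, from 14.2 CPM to 56.5, 78.1 and 90.5 CPM (2.40 ± 0.43, FDR = 0.00663). HaCaT siCTRL had 112 CPM of ACTN1 and 15.7 CPM of TNS4, below every YAP5SA library. PDLIM7, a PDZ and LIM protein, rose from 5.00 CPM to between 12.6 and 16.8 CPM (1.5 ± 0.32, FDR = 0.012), and siCTRL had 3.22 CPM. The leukocyte subunit ITGB2 went from 0.159 CPM to between 7.67 and 13.4 CPM (6.06 ± 0.91, FDR = 0.00331), with 2.29 CPM in siCTRL. The scaffold GIT1, which binds paxillin, had 18.9 CPM with empty vector and 36.7 to 46.5 CPM with YAP5SA (1.11 ± 0.18, FDR = 0.00521). Its siCTRL level was 39.6 CPM, inside the YAP5SA range. Known YAP targets gave a scale for this arm: CYR61 went from 21.1 CPM to between 102 and 202 CPM (2.81 ± 0.42) and ANKRD1 from 8.50 CPM to between 100 and 309 CPM (4.62 ± 0.61). HaCaT siCTRL had 6.45 CPM of CYR61 and 1.97 CPM of ANKRD1, below every YAP5SA library. With siYAP against siCTRL neither gene was called, CYR61 being -0.32 in A431 and -0.57 in HaCaT, and ANKRD1 0.31 and -0.66. AMOTL2, a further label check, was called lower with siYAP in HaCaT (-1.03) and not in A431 (-0.33). For YAP5SA against siYAP, CYR61 (0.14) and ANKRD1 (1.06) were not called in A431, and both were called in HaCaT (5.09 and 7.38).

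Setting YAP5SA directly against siYAP leaves the single controls out and puts 3 libraries against 3, but the arms also differ in transfection with vector or siRNA, which cannot be told apart from YAP here. The summed markers moved with the arms. In HaCaT the fibroblast markers were 21.5 to 27.9 CPM with siYAP and 0.861 to 1.90 CPM with YAP5SA, the immune and endothelial markers 20.6 to 25.1 CPM and 3.50 to 5.28 CPM, and the keratinocyte markers 5359 to 6135 CPM and 8055 to 10849 CPM. In A431 the fibroblast markers were 11.98 to 14.9 CPM with siYAP and 2.45 to 4.30 CPM with YAP5SA, the immune and endothelial markers 23.7 to 28.99 CPM and 7.97 to 8.57 CPM, and the keratinocyte markers 4896 to 5600 CPM and 6870 to 7278 CPM. Their part in the results was not tested. PARVA and PTK2 were called in both lines. PARVA was higher with YAP5SA by 0.67 ± 0.13 in A431 (FDR = 0.00177) and by 0.55 ± 0.13 in HaCaT (FDR = 0.00214). Its 3 A431 values were 35.6 to 39.7 CPM with YAP5SA and 22.1 to 26.4 CPM with siYAP, and the HaCaT values 47.9 to 68.3 CPM and 37.5 to 42.2 CPM, with no overlap in either line. PTK2 was lower with YAP5SA, by a log2 fold change of -0.54 ± 0.13 in A431 (312 to 387 CPM against 479 to 507 CPM, FDR = 0.00715) and of -0.72 ± 0.13 in HaCaT (209 to 303 CPM against 383 to 431.2 CPM, FDR = 0.000363). With each arm set against its own control first, PARVA stayed called in A431 (1.17, FDR = 0.0462) and HaCaT (1.07, FDR = 0.0238), while PTK2 was called in HaCaT (-1.15, FDR = 0.0212) and not in A431 (-0.71, FDR = 0.166).

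Other members were called in one line and not in the other. In A431 FERMT1 was higher with YAP5SA (84.8 to 138 CPM against 50.5 to 57.1 CPM, log2 fold change 1.08 ± 0.18, FDR = 0.000606), a call lost with each arm set against its own control first (1.06, FDR = 0.134). TLN1 (109 to 171 CPM against 177 to 215 CPM, -0.47 ± 0.17, FDR = 0.0442) and ZYX (23.8 to 30.5 CPM against 33.4 to 48.6 CPM, -0.61 ± 0.21, FDR = 0.0357) were lower. Both of these calls were lost when any 1 of 4 libraries was left out, for TLN1 A431 siYAP replicate 1 or 3 or A431 YAP5SA replicate 1 or 3, with a log2 fold change of -0.31 to -0.51, and for ZYX A431 siYAP replicate 2 or 3 or A431 YAP5SA replicate 1 or 3, with -0.45 to -0.65. In HaCaT LIMS1 was lower with YAP5SA (86.6 to 109 CPM against 134 to 169 CPM, -0.67 ± 0.11, FDR = 0.000128), a call also lost with each arm against its own control first (-0.40, FDR = 0.266). Whether these differed between the lines was not tested. In all 5 of 10 members were called in A431, where 34.6% of all genes were, and 3 of 10 in HaCaT, where 60% were. ILK had log2 fold changes of 0.06 ± 0.10 in A431 and 0.02 ± 0.10 in HaCaT.

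**Figure D4:**
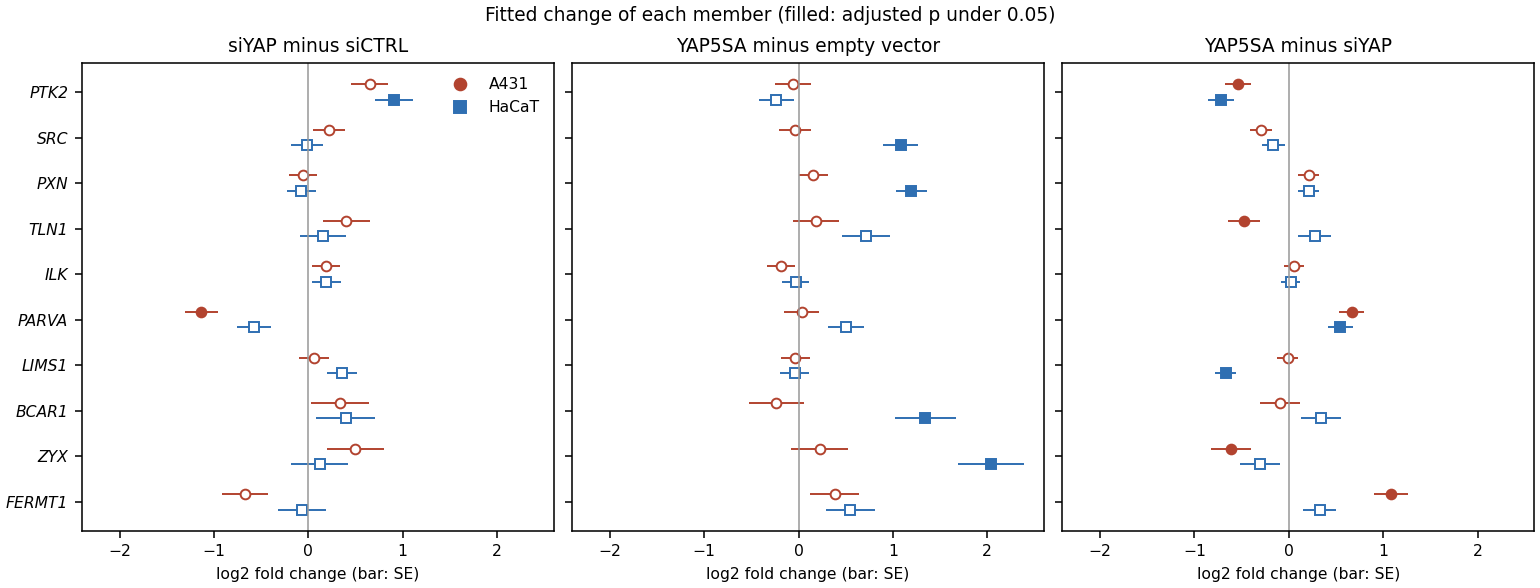
Log2 fold change of each member with 1 SE in A431 (circles) and HaCaT (squares) for siYAP against siCTRL, YAP5SA against empty vector and YAP5SA against siYAP. Filled symbols have an FDR under 0.05. PARVA and PTK2 are filled in both lines in the last panel, and the 4 filled squares of the middle panel (SRC, PXN, BCAR1 and ZYX) have no filled circle beside them.

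Of the wider list, 14 of 78 genes were higher and 23 lower with YAP5SA than with siYAP in A431 (47.4% called), and 31 were higher and 23 lower in HaCaT (69.2% called), against 34.6% and 60% of all genes. These shares of all genes again include genes too low to be called, so no excess was read from them. In A431 CSRP1 was higher (71.8 to 91.2 CPM against 23.4 to 29.1 CPM, 1.62 ± 0.12, FDR = 1.89e-06), as was AJUBA (81.4 to 132 CPM against 41.1 to 47.6 CPM, 1.29 ± 0.17, FDR = 9.91e-05). NEDD9, a relative of BCAR1, was lower there (8.62 to 21 CPM against 41.1 to 52.5 CPM, -1.84 ± 0.27, FDR = 0.000258). The A431 empty vector levels of CSRP1 (80.2 CPM) and NEDD9 (17.7 CPM) already lay inside their YAP5SA ranges. Their A431 siCTRL levels were 49.2 and 34.4 CPM. AJUBA had 72.5 CPM with empty vector, below its YAP5SA range, and 103 CPM in siCTRL, inside it. In HaCaT ITGA5 (153 to 202 CPM against 9.43 to 12.5 CPM, 4.0 ± 0.14) and the LIM protein FHL2 (71.4 to 73.0 CPM against 11.4 to 13.7 CPM, 2.57 ± 0.12) were higher. Their empty vector levels, 86.2 CPM of ITGA5 and 55.5 CPM of FHL2, were already far above the siCTRL levels of 7.98 and 12.6 CPM.

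The members did not move as 1 block. Over the 16 libraries, with each line centred on its own mean log2 CPM, 24 of the 45 pairs of members had a positive Pearson r and the median r was 0.05. The closest pair was SRC and ZYX (r = 0.948) and the most opposed was PTK2 and PARVA (r = -0.878), then PTK2 and FERMT1 (-0.669). These values describe 16 libraries that share 2 lines, 8 groups and the low HaCaT empty vector library. By the same measure the gene nearest to PTK2 was STAT5B (r = 0.968), that nearest to ZYX was DENND4B (0.978), that nearest to SRC was FAM195A (0.961) and that nearest to PARVA was ZDHHC4 (0.885). ILK had the loosest nearest gene, ACYP1 (0.815). The other members' nearest genes were NDST1 for PXN, SMG9 for TLN1, DET1 for LIMS1, ORAI1 for BCAR1 and MTG1 for FERMT1, with r between 0.920 and 0.955. Each nearest r is the highest over all tested genes outside the members, so it is high by selection. Such top values were not computed for other genes, and no shared regulation is read from them.

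Within lines, ZYX had the widest span over the 8 HaCaT libraries (5.76-fold between the lowest and highest) and FERMT1 the widest in A431 (2.74-fold). LIMS1 spanned 1.09-fold in A431 and 1.95-fold in HaCaT, where its siYAP libraries were the highest. ILK spanned 1.36-fold in A431 and 1.23-fold in HaCaT, and was not called in any comparison.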

How the data were processed

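The authors trimmed their paired HiSeq reads and aligned them to RefSeq genes with RSEM, whose version is 1.2.21 in the methods and 1.2.11 in the submitters' processing notes, which name the hg19 build. The deposited table holds RSEM expected counts, also called estimated counts, per gene for 26229 genes and 16 libraries, unscaled and unfiltered. Here they were rounded, and genes with a mean above 10 counts were tested. R 4.3.3 and edgeR 4.0.16 were used, with TMM factors of 0.914 to 1.07. All 8 groups shared 1 quasi-likelihood model, which left 8 residual degrees of freedom. FDR is the Benjamini-Hochberg adjusted p over every gene tested. A gene was called at FDR under 0.05 with a logCPM above 1, the rule of the study's methods. The SE was taken from the fold change and its F statistic. The script was tested on simulated data. All members are named. Other focal adhesion genes came from the 3 largest called changes of each list and comparison, paralogs and label checks were named by symbol, and nearest genes by Pearson r. The members and lists were chosen with earlier results of these data known. Sequences came from RefSeq (GRCh38.p14) and lengths from GENCODE 29. Alternatives were DESeq2 1.42.0, other scaling, filters, thresholds and controls, a replicate block, and each siYAP or YAP5SA library left out. Replicates of a group differed by more than sampling noise (chi-square per degree of freedom 6.51 to 142).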

Additional observations from a re-analysis of the deposited data

How the results depend on the processing

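Counts of members called (out of 10) changed as follows. In A431, siYAP against siCTRL went from 1 to 2 with DESeq2, with a likelihood ratio test and with the line fitted alone. In HaCaT, siYAP against siCTRL went from 1 to 0 with a log2 fold change of at least 1 or the line fitted alone. It went to 2 with both controls as 1 group, and to 6 with empty vector as the control, where 51.2% of all genes were called. Using the other control was an alternative chosen after seeing the data, and it sets siRNA cells against vector cells. Over both lines siYAP went from 2 to 0 with a log2 fold change of at least 1. With empty vector as the control it went to 7, where 45.5% of all genes were called. YAP5SA in HaCaT went from 4 to 1 with both controls and to 0 with siCTRL (44.5% of all genes called). Over both lines YAP5SA went from 3 to 1 with a log2 fold change of at least 1 and to 0 with both controls. It went to 0 with siCTRL (39.8% of all genes called), and gave 1 to 5 with a library left out. The line difference of YAP5SA went from 0 to 4 with DESeq2 or a likelihood ratio test, to 2 with RLE size factors, to 3 when every library had to pass 10 counts, and to between 0 and 4 with a library left out. YAP5SA against siYAP in A431 went from 5 to 1 with a log2 fold change of at least 1 or each arm set against its own control first, to 3 with both controls, and to between 3 and 5 with a library left out. In HaCaT the same comparison went from 3 to 0 and, with each arm against its own control first, to 5. A431 against HaCaT went from 8 to 4 with a log2 fold change of at least 1.

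Where at least 1 of the 2 values compared was called, directions turned in 9 member results and 1 other, each with another control. Signs also differed 51 times, in 31 member results, where neither value was called, and these were not read. With empty vector as the control of siYAP, SRC was 1.25 and PXN 0.99 in HaCaT, PXN 0.47 over both lines and FERMT2 -0.32 in HaCaT. With siCTRL as the control of YAP5SA, SRC was -0.18 and ZYX -0.19 in HaCaT, and SRC -0.12 and ZYX -0.15 over both lines. With each arm against its own control first, YAP5SA against siYAP in HaCaT gave 1.09 for SRC and 1.92 for ZYX. These settings differ from the main one only in the control libraries. With a siYAP or YAP5SA library left out, 564 of the members' results kept their side of the threshold, 23 passed it and 13 lost it. The single control libraries were never left out, so these counts do not cover them.

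Same-numbered deviations of siYAP and YAP5SA correlated at -0.028 to 0.124 within a line, and those of siYAP between the lines at 0.0189 to 0.208, so the numbers were not shown to pair these samples. Those of YAP5SA between the lines correlated at 0.135 to 0.362, all 3 pairs over 0.1, so these numbers may be shared between the lines. There a replicate block called 3 members over both lines and 0 for the line difference, as without it. The block called 3 members for siYAP in A431 in place of 1, with PTK2 at 0.77 (FDR = 0.0319) and FERMT1 at -0.83 (FDR = 0.0307) added to PARVA. It also added FERMT1 for siYAP over both lines (-0.45, FDR = 0.0494), TLN1 for YAP5SA in HaCaT (0.70, FDR = 0.0461) and BCAR1 for A431 against HaCaT (0.31, FDR = 0.0464). The single controls set the limit on every comparison with siCTRL or empty vector.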
